A study of Mus musculus with 6 samples.

Results

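The 10 genes described here carry the signal that leads through the kinase TAK1 to the transcription factor NF-kappaB: Tab1, Tab2 and Tab3, which encode the partners of TAK1, Map3k7, which encodes TAK1 itself, Traf6 and Traf2, Ikbkb, Chuk and Ikbkg, and Rela. They are 10 of the 25901 rows of the heart RNA table, each matched by its symbol, and each symbol had 1 row. The set was chosen by a readout of these same hearts. Tab2 was selected on its higher level in SRAKO hearts, and the other 9 were added as its partners in the pathway. The differences between genotypes given for the 10 genes are therefore descriptions, with no test, and support nothing. Of the 10, 8 passed the filter on low values (3 or more of the 6 hearts with an FPKM of 1 or above). Traf6 passed it with 3 hearts. Ikbkb fell short with 2, and Tab3 with 0.

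RNA was measured in hearts of 3 mice named SRAKO (SRAKO2365, SRAKO2371 and SRAKO2372) and of 3 wild-type mice (WT2368, WT2379 and WT2378). Every mouse, wild type included, had received isoproterenol, a beta-adrenergic agonist that drives cardiac hypertrophy, for 4 weeks. SRA is the steroid receptor RNA activator, the product of Sra1. The labels give no strain, age, sex or litter, and they do not say which part of Sra1 was removed, in which cells, or which part of the heart was taken. Hearts without isoproterenol are not part of the comparison. The row of Sra1 had an FPKM of 1.96, 1.78 and 2.05 in the SRAKO hearts, against 4.40, 6.31 and 4.23 in the WT hearts, which puts each SRAKO heart below every WT heart (exact two-sided permutation test, p = 0.1, the smallest that 3 hearts against 3 can give). That row also joins 1 transcript of the neighbouring gene Apbb3 to 5 of Sra1.

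TAK1 is a kinase that sits at a crossroads of inflammatory and stress signalling. Receptors for tumour necrosis factor, interleukin-1 and bacterial products recruit TRAF ubiquitin ligases, which build ubiquitin chains. TAB2 and TAB3 bind those chains and bring TAK1 to them, while TAB1 binds and activates the kinase directly. Active TAK1 phosphorylates the IkappaB kinase complex, which marks the inhibitor IkappaB for destruction and frees the RelA dimer to enter the nucleus. TAK1 also feeds the p38 and JNK kinases. In the heart the pathway is known for its part in hypertrophy, inflammation and cell survival, and loss of a copy of TAB2 causes congenital heart defects and cardiomyopathy in humans.

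FPKM scales reads by transcript length and library size, so levels of different genes can be set side by side. The reads behind the values were read only indirectly. Among rows with a single annotated transcript, FPKM multiplied by length took the same low value in 203 to 229 rows per heart, and this step was taken as the coverage of 1 sequenced fragment. On that reading an FPKM of 1 over a kilobase stood for 22.0, 19.1 and 23.1 steps in SRAKO2365, SRAKO2371 and SRAKO2372, and for 14.6, 20.7 and 17.8 in WT2368, WT2379 and WT2378. WT2368 was thus the shallowest heart. It also stood apart in ribosomal RNA, with a summed FPKM of 14590 over the annotated ribosomal rows, followed by SRAKO2371 at 6894, against 2087 to 2971 in the other hearts. WT2368 held the lowest value of the 6 hearts for 5 of the 10 genes (Tab1, Tab3, Traf2, Ikbkg and Rela) and the highest for 0. Its values ran low over the table, with a median-ratio scale factor of 0.913 against 0.997 to 1.047 in the other hearts. The share of all tested rows lowest in WT2368 was not computed, so the count is not read as a trait of these genes. The part of ribosomal RNA or depth in the values of the 10 genes was not tested.

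**Figure D1:**
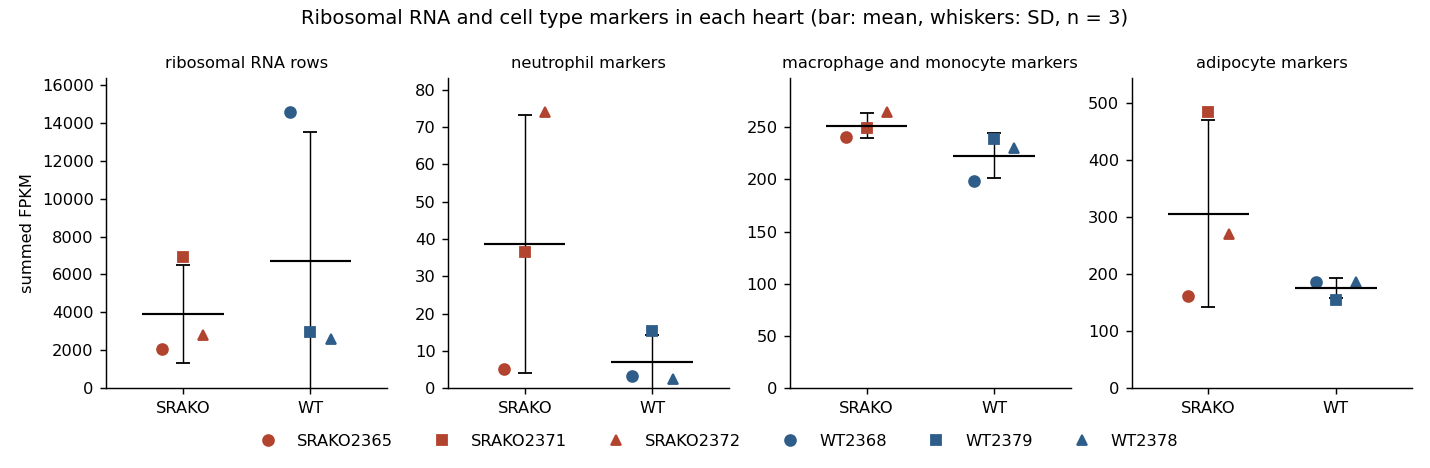
Summed FPKM (linear axes from 0) of ribosomal RNA rows and of 3 cell type marker lists in each SRAKO and WT heart; points are hearts, bars the mean and whiskers the SD of 3 hearts. WT2368 stands apart in ribosomal RNA at 14590, and neutrophil and adipocyte markers are high in SRAKO2371 and SRAKO2372. The macrophage sums do not overlap, with WT2379 at 238.9 just below SRAKO2365 at 240.9.

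Tab2, on which the set was chosen, separated the genotypes and was higher in SRAKO hearts. It encodes the ubiquitin-chain receptor of the TAK1 complex and spans bases 7905653 to 7956230 of chromosome 10, minus strand (GRCm38, as for all positions of genes given here). Its FPKM was 8.52, 7.49 and 9.17 in the SRAKO hearts, against 5.78, 5.94 and 4.86 in the WT hearts. Every SRAKO heart was above every WT heart, and the lowest SRAKO heart, SRAKO2371, stood next to the highest WT heart, WT2379. The means were 8.39 ± 0.847 in SRAKO and 5.52 ± 0.580 in WT (SD, n = 3 each), so that SRAKO had 152% of the WT level. On the log2(FPKM + 1) scale the difference, SRAKO minus WT, was 0.53 (SE 0.11). That difference is larger than those of 99.2% of the 10201 tested rows, a position that follows from how the gene was picked. With 1 heart left out in turn the difference ran from 0.45 to 0.60. The 4 hearts poorest in ribosomal RNA gave 0.63.

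The row of Tab2 sums 6 transcripts: 3 annotated as protein coding, 2 with a retained intron and 1 assembled by the authors' pipeline. The value therefore does not say which of them differs. No other annotated gene overlaps Tab2 on either strand; reads were not at hand to check the assembled transcript. Of the 8 tested members 0 had a limma p under 0.05 after Benjamini-Hochberg adjustment, Tab2 included, against 0.0196% of all tested rows. Groups that do not overlap were found for 1 of the 8, Tab2 on the higher side, against 4.28% of all tested rows on the higher side and 3.76% on the lower side. Since the set was chosen on this contrast, nothing is read from these counts.

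**Figure D2:**
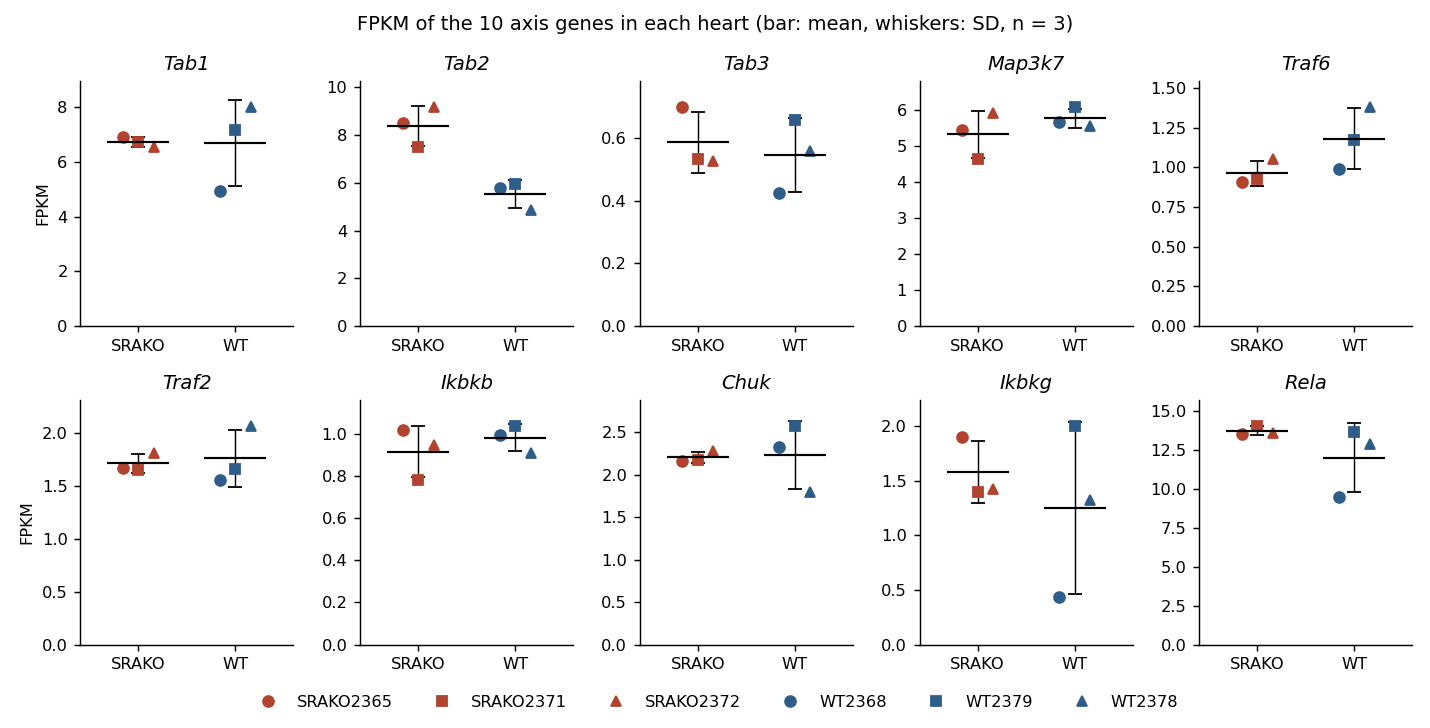
FPKM (linear axes from 0, a scale for each gene) of the 10 genes in each SRAKO and WT heart; points are hearts, bars the mean and whiskers the SD of 3 hearts. The SRAKO hearts of Tab2 lie between 7.49 and 9.17 and its WT hearts between 4.86 and 5.94, while the groups overlap for the other 9 genes.

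The groups of the other TAB genes overlapped. Tab1, which encodes the activator subunit of TAK1 (chromosome 15 from 80133127 to 80161707, plus strand), had an FPKM of 6.92, 6.72 and 6.54 in the SRAKO hearts, against 4.92, 7.15 and 7.99 in the WT hearts. The SRAKO hearts lay close together inside the wide range of the WT hearts, with means of 6.73 ± 0.192 and 6.69 ± 1.59 and a log2 difference of 0.03 (SE 0.18). That agreement of the means rests on WT2368. Without it the WT mean was 7.57, the difference was -0.15, and all 3 SRAKO hearts were below the other 2 WT hearts.

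Tab3, the close relative of Tab2 that also binds ubiquitin chains (chromosome X from 85574022 to 85634469, plus strand), was the weakest of the 10 genes. Its FPKM was 0.698, 0.533 and 0.527 in the SRAKO hearts, against 0.423, 0.656 and 0.559 in the WT hearts. The groups overlapped throughout, with a log2 difference of 0.04 (SE 0.08), and by the step reading the values rested on 64.8 to 97.8 fragments in SRAKO hearts and on 39.3 to 86.5 in WT hearts. Tab2 exceeded Tab3 in 6 of 6 hearts, by a ratio of FPKM of 14.6 ± 2.63 in SRAKO and 10.5 ± 2.77 in WT. Of the summed FPKM of the 3 TAB genes, Tab2 made up 52.8%, 50.8% and 56.5% in the SRAKO hearts, against 51.9%, 43.2% and 36.3% in the WT hearts. These shares overlap, since WT2368 with its low Tab1 lies above SRAKO2371.

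Map3k7, the gene of TAK1 (chromosome 4 from 31964097 to 32023467, plus strand), had an FPKM of 5.44, 4.63 and 5.93 in the SRAKO hearts, against 5.67, 6.08 and 5.56 in the WT hearts. The groups overlapped, SRAKO2371 being the lowest heart. Means were 5.33 ± 0.655 in SRAKO and 5.77 ± 0.272 in WT, a log2 difference of -0.10 (SE 0.09). Without SRAKO2371 it was -0.02, and without SRAKO2372 it was -0.17 and the groups no longer overlapped. The ratio of Tab2 to Map3k7 within a heart was 1.57, 1.62 and 1.55 in the SRAKO hearts, against 1.02, 0.977 and 0.874 in the WT hearts. Tab2 thus had more FPKM than Map3k7 in all 3 SRAKO hearts and about as much in the WT hearts. A ratio within a heart does not depend on how libraries are scaled, but it still holds the Tab2 values on which the set was chosen.

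Of the 9 ratios of Tab2 to another member, 5 did not overlap between the genotypes, all on the higher side. The ratio of Tab2 to each of the other 10200 tested rows did the same for 69.4% of them, so the count is nothing particular to these genes, and it rests on the Tab2 values that chose the set. Besides Map3k7 these were Traf6 (8.74 ± 0.643 in SRAKO and 4.80 ± 1.17 in WT), Traf2 (4.89 ± 0.314 and 3.21 ± 0.750), Ikbkb (9.21 ± 0.717 and 5.62 ± 0.245) and Chuk (3.81 ± 0.308 and 2.50 ± 0.200). The ratios to Tab1, Tab3, Ikbkg and Rela overlapped. In each of these 4 the ratio of WT2368 lay above that of at least 1 SRAKO heart, and the ratios of the other 2 WT hearts lay below all SRAKO hearts.

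**Figure D3:**
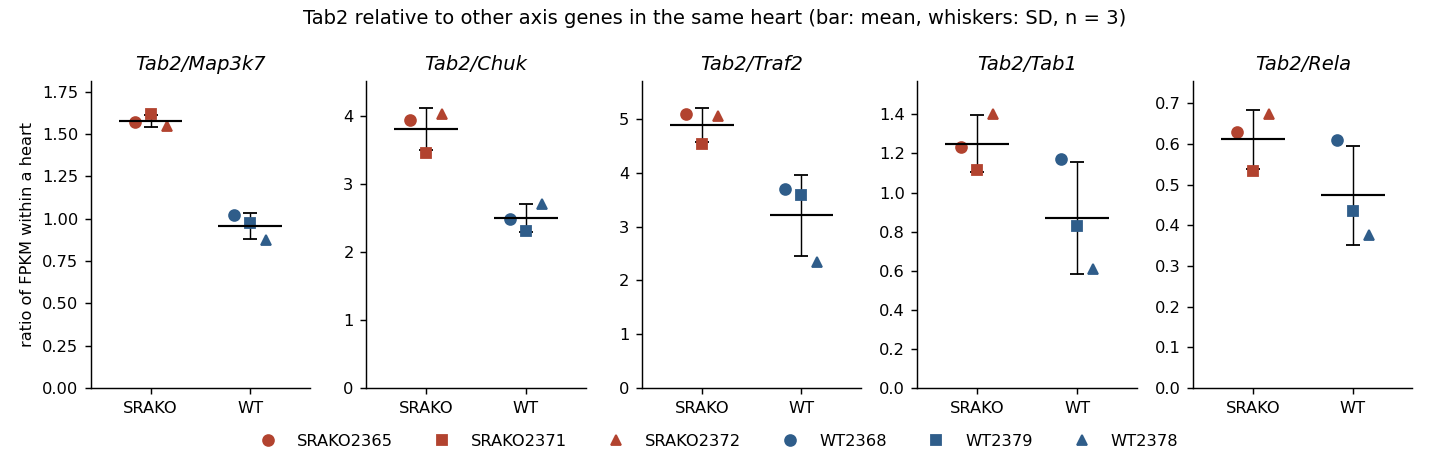
Ratio of Tab2 FPKM to that of 5 other members within the same heart (linear axes from 0) in SRAKO and WT hearts; points are hearts, bars the mean and whiskers the SD of 3 hearts. The ratio to Map3k7 is 1.55 to 1.62 in SRAKO hearts and 0.874 to 1.02 in WT hearts, and the ratios to Tab1 and Rela overlap through WT2368.

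The upstream DNA of Tab2 and Map3k7 is shown because several genes of the pathway are themselves known NF-kappaB targets, and that of Nfkbia for comparison. RefSeq promoters (GRCm38.p6) were at hand for 8 of the 10 members, and the 250 bases before each start were searched on both strands. Tab2 is shown from its upstream RefSeq start (chr10:7956124-7956373, minus strand), with GC boxes, GGGCGG, in capitals at 23 and 8 bases before that start. The RefSeq start differs from the GENCODE span of Tab2, which reaches 7956230, so both GC boxes lie inside that span. The last bases of the Map3k7 window also lie inside its GENCODE span, which begins at 31964097. Map3k7 (chr4:31963857-31964106, plus strand) and Nfkbia, the gene of IkappaB-alpha and a classic NF-kappaB target (chr12:55492648-55492897, minus strand), are shown with their matches to the kappa-B consensus in capitals.
Tab2: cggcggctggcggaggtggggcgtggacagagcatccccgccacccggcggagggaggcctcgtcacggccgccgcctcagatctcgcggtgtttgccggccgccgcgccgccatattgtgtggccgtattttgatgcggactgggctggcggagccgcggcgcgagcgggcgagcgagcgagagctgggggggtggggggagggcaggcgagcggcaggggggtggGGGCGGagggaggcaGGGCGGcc
Map3k7: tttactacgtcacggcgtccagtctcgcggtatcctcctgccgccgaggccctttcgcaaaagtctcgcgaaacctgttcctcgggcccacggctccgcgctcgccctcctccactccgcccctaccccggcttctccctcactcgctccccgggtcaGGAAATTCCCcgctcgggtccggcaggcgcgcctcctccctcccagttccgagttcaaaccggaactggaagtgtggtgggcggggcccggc
Nfkbia: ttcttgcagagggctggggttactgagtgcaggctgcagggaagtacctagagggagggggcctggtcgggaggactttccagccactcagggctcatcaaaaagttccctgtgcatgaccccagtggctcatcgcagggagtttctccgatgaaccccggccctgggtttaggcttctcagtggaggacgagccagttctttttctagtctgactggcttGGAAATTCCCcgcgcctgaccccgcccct

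Map3k7 was the only 1 of the 8 members with a match to the kappa-B consensus in these windows, at 92 bases before the start on the reverse strand. Its 10 bases, GGAAATTCCC, are the same as those of Nfkbia, where they begin 29 bases before the start, and neither match overlaps a GC box. These exact letters occur on either strand in 0.0852% of the 32851 RefSeq promoters cut to the same length, and the consensus in 7.25%. The letters were searched for because they had been found in Map3k7, so nothing is read from how rare they are. Counted by gene, the consensus was found for 8.23% of all 27025 genes. It was found for 1 of the 8 members, 12.5%, and nothing is read from 1 gene. Among listed NF-kappaB target genes with a promoter it was found for 13 of 26, 50%. The windows of Tab2, 1 at each of its 2 RefSeq starts, held no match. GC boxes were found in 7 of the 8 members, against 35.4% of all genes, and TATAAA in 0 of 8, against 14.3%. A match is only a run of letters, and no binding was measured.

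The TRAF ubiquitin ligases act before TAK1, and both genes had a low FPKM in these hearts. Traf6, which serves interleukin-1 and Toll-like receptors (chromosome 2 from 101678429 to 101701669, plus strand), had an FPKM of 0.908, 0.924 and 1.05 in the SRAKO hearts, against 0.991, 1.17 and 1.38 in the WT hearts. SRAKO2365 and SRAKO2371 were below every WT heart, and SRAKO2372 was above WT2368. The log2 difference was -0.15 (SE 0.08). With all hearts kept, the groups no longer overlapped when libraries were rescaled by their median ratio (-0.16). Without rescaling, they no longer overlapped without WT2368 (-0.21), without SRAKO2372 (-0.18) or without both WT2368 and SRAKO2371 (-0.20). Without WT2378 the difference was -0.09. With a pseudocount of 0.1 in place of 1 the difference was -0.26. Traf2, which serves tumour necrosis factor receptors (chromosome 2 from 25517982 to 25546940, minus strand), had 1.67, 1.65 and 1.81 in the SRAKO hearts, against 1.56, 1.66 and 2.07 in the WT hearts. Its groups overlapped completely, with a log2 difference of -0.02 (SE 0.08).

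Among the subunits of the IkappaB kinase complex, the kinases differed little and the scaffold varied most. Chuk, the gene of IKK-alpha (chromosome 19 from 44073335 to 44107480, minus strand), had an FPKM of 2.16, 2.17 and 2.28 in the SRAKO hearts, against 2.32, 2.58 and 1.80 in the WT hearts. The SRAKO hearts lay within the range of the WT hearts, with a log2 difference of -0.005 (SE 0.11). Without WT2378 it was -0.11 and the groups no longer overlapped, and without WT2379 it was 0.07. Ikbkb, the gene of IKK-beta and the main kinase of IkappaB (chromosome 8 from 22659212 to 22706589, minus strand), had 1.02, 0.782 and 0.948 in the SRAKO hearts, against 0.996, 1.04 and 0.910 in the WT hearts. Its groups overlapped too, with a log2 difference of -0.05 (SE 0.06). An antisense gene, Gm15346, overlaps Ikbkb, and without strand information in the labels their reads cannot be told apart. Annotated genes on the opposite strand also overlap Map3k7 (Gm11926 and Gm26254) and Traf2 (Gm13433), and Gm44378 overlaps Tab3 on its own strand. Chuk was above Ikbkb by a ratio of 2.43 ± 0.324 in SRAKO and 2.26 ± 0.260 in WT, in 6 of 6 hearts.

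Ikbkg encodes NEMO, the ubiquitin-binding scaffold of the complex, on chromosome X from 74393290 to 74453854 on the plus strand. It had an FPKM of 1.91, 1.40 and 1.43 in the SRAKO hearts, against 0.433, 2.01 and 1.32 in the WT hearts. WT2368 was far below the other 5 hearts, and the highest heart had 4.63 times its level. The log2 difference of 0.25 (SE 0.33) was -0.04 without that heart. It was 0.49 without WT2379, where the groups no longer overlapped on the higher side, and 0.51 with a pseudocount of 0.1. The row joins 17 transcripts from several starts, and G6pdx overlaps the gene on the opposite strand, so that reads of the 2 genes cannot be separated with certainty.

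Rela, the transcription factor subunit at the end of the axis (chromosome 19 from 5637483 to 5648130, plus strand), was the strongest member. Its FPKM was 13.5, 14.1 and 13.6 in the SRAKO hearts, against 9.50, 13.6 and 12.9 in the WT hearts. The SRAKO hearts lay within a narrow band, and WT2379 reached into it. Means were 13.7 ± 0.287 and 12.0 ± 2.21, a log2 difference of 0.19 (SE 0.15). It was 0.05 without WT2368 and 0.29 without WT2379, and with libraries rescaled by their median ratio it was 0.18. In the last of these settings, and without WT2379, the groups no longer overlapped.

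**Figure D4:**
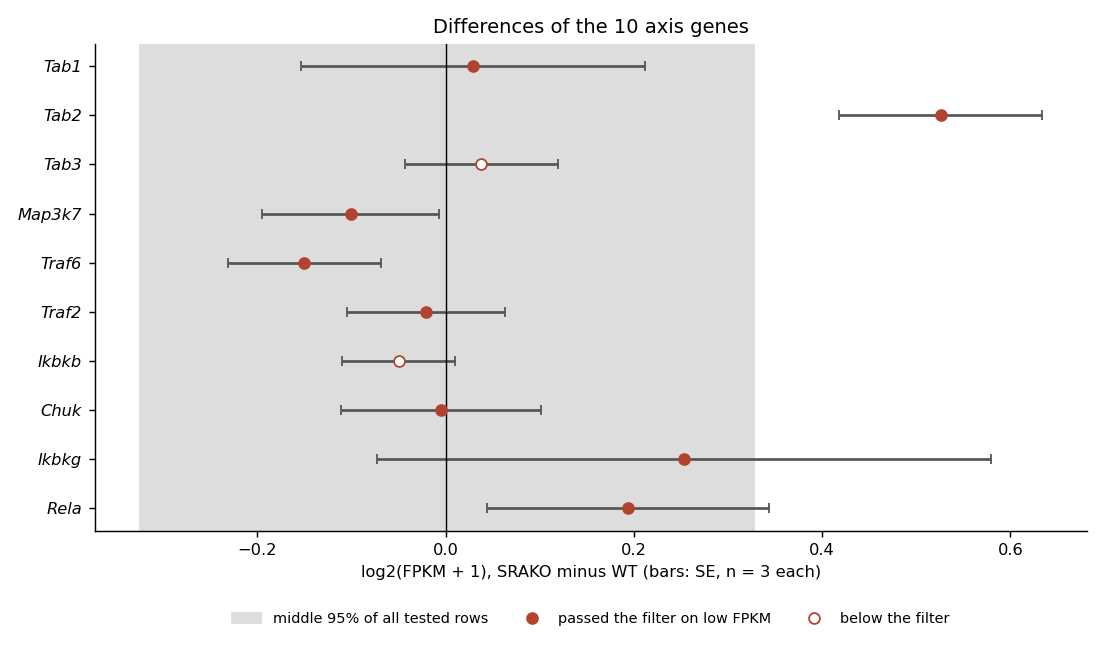
Difference of each member on the log2(FPKM + 1) scale, SRAKO minus WT, with its SE (n = 3 each); filled points passed the filter on low FPKM and open points did not, and the grey band spans the middle 95% of all tested rows, -0.33 to 0.33. Tab2 at 0.53 lies outside the band, and the other 9 lie inside it between -0.15 and 0.25.

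Over all 10 members, measured ones below the filter included, 5 were higher in SRAKO and 5 lower, with a median log2 difference of 0.01. Over the 10201 tested rows 53.5% were higher and the median was also 0.01. The 9 members other than Tab2 had a median of -0.01 and a range from -0.15 to 0.25, against a middle 95% of all tested rows from -0.33 to 0.33.

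Ordered by mean FPKM over the 6 hearts, the levels ran from Rela (12.9) through Tab2 (6.96), Tab1 (6.71), Map3k7 (5.55), Chuk (2.22), Traf2 (1.74), Ikbkg (1.41), Traf6 (1.07) and Ikbkb (0.948) to Tab3 (0.566). The steps from Rela to Tab2, from Map3k7 to Chuk and from Ikbkb to Tab3 held in 6 of 6 hearts. Tab1 exceeded Map3k7, and Chuk exceeded Traf2, in 5 of 6. Neighbours in the rest of the order did not differ beyond their spread, each pair keeping its order in 4 of 6 hearts. Tab2 was above Tab1 in 3 of 3 SRAKO hearts and in 1 of 3 WT hearts, WT2368. Tab1, Tab2 and Map3k7 thus formed a middle group, above the IkappaB kinase complex and TRAF genes and below Rela. Tab3, also a partner of TAK1, was the lowest of all.

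The rest of the pathway was described through 9 lists that hold 155 genes of the table besides the members, 103 of which passed the filter. After Benjamini-Hochberg adjustment over all tested rows, limma called 0 of the 103, with 0.999 as the smallest adjusted p. At an unadjusted p under 0.05 there were 0 genes on the higher side, against 1.90% of all tested rows, and 2 on the lower side, 1.94% of the 103 against 1.56% of all tested rows. Groups that do not overlap were found for 4 genes on the higher side, 3.88%, and for 1 on the lower side, 0.971%, both below the shares over all tested rows. Counted over all 155 genes, 68 were higher and 87 lower, with a median log2 difference of -0.01.

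**Figure D5:**
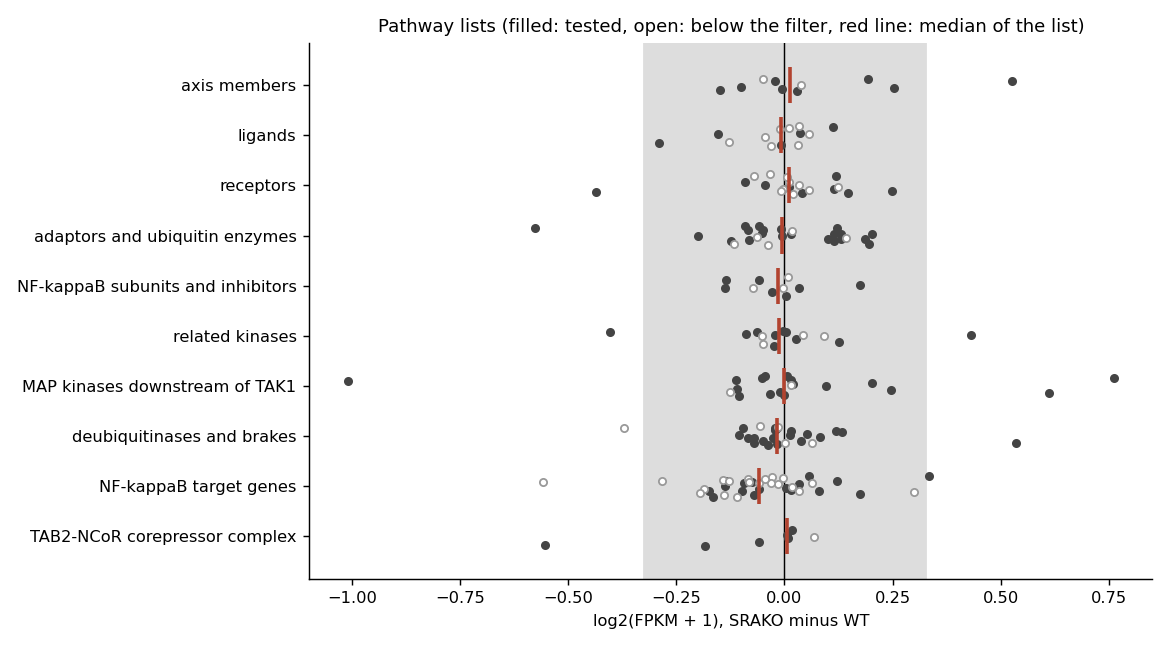
Log2(FPKM + 1) differences, SRAKO minus WT, of the members and of the genes of 9 pathway lists; filled points passed the filter, open points did not, red lines are medians over all genes of a list and the grey band is the middle 95% of all tested rows, -0.33 to 0.33. All list medians lie between -0.06 and 0.01, and Atf3 at -1.01 and Fos at 0.76 lie farthest out.

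The cytokines that start the signal were scarce. Of 13 ligands with a row, 5 passed the filter, SRAKO hearts were higher for 6 and lower for 7, and the median was -0.01. Tnf averaged 0.0699 in SRAKO and 0.176 in WT, Il1b 0.181 and 0.152, and Il6 0.00621 and 0.0288, all below the filter. Il33, an alarmin released by damaged tissue, had 2.40, 2.23 and 1.89 in the SRAKO hearts, against 2.34, 3.43 and 2.93 in the WT hearts, which overlap through WT2368 (log2 difference -0.29, and -0.40 without that heart). Log2 differences were -0.15 for Tnfsf10 (the death ligand TRAIL), 0.11 for the row that joins Tnfsf12 with Tnfsf13, and 0.04 for Tgfb1. Without WT2378 the median of the 5 tested ligands was -0.075, against -0.009 with all hearts.

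Of 19 receptors, 9 passed the filter, 12 were higher and 7 lower, with a median of 0.01. The median of the 9 tested receptors was 0.04, and -0.07 without WT2368. Tnfrsf1a, the main receptor of tumour necrosis factor, averaged 19.4 ± 0.594 in SRAKO and 17.6 ± 3.15 in WT. The lymphotoxin receptor gene Ltbr averaged 11.8 ± 0.386 and 10.9 ± 1.07, and Tgfbr1, a receptor kinase of TGF-beta, 1.43 ± 0.321 and 1.05 ± 0.265. Tnfrsf12a, the receptor of the cytokine TWEAK, had 32.3, 37.1 and 31.2 in the SRAKO hearts, against 29.3, 81.6 and 39.5 in the WT hearts, a log2 difference of -0.44 that was -0.02 without WT2379 and -0.75 without WT2368.

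All 26 adaptors and ubiquitin enzymes had a row and 21 passed the filter; 12 were higher and 14 lower, with a median of -0.01. Sharpin, a subunit of the ligase that builds linear ubiquitin chains, had 5.30, 5.54 and 5.05 in the SRAKO hearts, against 4.21, 5.03 and 4.39 in the WT hearts, without overlap. Birc3, a ubiquitin ligase that is itself induced by NF-kappaB, had 1.52, 1.51 and 1.62 against 1.44, 1.41 and 1.19, also without overlap. Their log2 differences were 0.19 and 0.12. Irak1, the kinase behind interleukin-1 receptors, averaged 7.96 ± 1.08 in SRAKO and 9.26 ± 0.659 in WT. Traf3, a brake on the alternative pathway, averaged 0.848 ± 0.866 and 1.67 ± 0.857.

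Among the NF-kappaB subunits and their inhibitors 10 had a row, 7 passed the filter, 4 were higher and 6 lower, with a median of -0.02. Without WT2368 the median of the 7 tested genes was -0.14, against -0.03 with all hearts. Nfkb1 averaged 2.54 ± 0.135 in SRAKO and 2.69 ± 0.359 in WT, and Nfkb2 4.60 ± 0.231 and 5.19 ± 0.673. Nfkbia had 23.1, 39.6 and 29.0 in the SRAKO hearts, against 16.6, 34.4 and 31.7 in the WT hearts, and the hearts of the genotypes interleave (log2 difference 0.18, and -0.14 without WT2368). Nfkbiz, an atypical inhibitor that also acts as a coactivator, averaged 0.878 ± 0.166 and 1.07 ± 0.248.

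Of the genes known as NF-kappaB targets that passed the filter, about as many were higher as lower in SRAKO. All 37 had a row and 17 passed the filter, 8 of them higher and 9 lower. Over the 37, 12 were higher and 25 lower, with a median of -0.06. The excess of lower genes lies in rows below the filter. The share of lower genes over all such rows was not computed, so nothing is read from that split. The median of the 17 tested genes was -0.06, and it was -0.12 without WT2368, 0.03 without WT2379 and 0.01 without WT2378. Vcam1, an endothelial adhesion molecule, averaged 1.90 ± 0.105 in SRAKO and 2.11 ± 0.200 in WT, and Birc3, Nfkb2 and Nfkbiz, which belong to this list too, are given above. Below the filter, 3 targets did not overlap, all on the lower side, and were named after their values were seen. No share over all rows below the filter was computed, so nothing is read from this count. In other pathway lists Tlr7, Map3k2 and Coro2a, also below the filter, did not overlap on the higher side (log2 differences 0.12, 0.09 and 0.07). The chemokine gene Ccl2 averaged 0.420 in SRAKO and 1.15 in WT, the chemokine gene Cxcl10 0.147 and 0.316, and Ptgs2, which encodes a prostaglandin synthase, 0.208 and 0.471.

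Of 14 related kinases and their adaptors 10 passed the filter, 6 were higher and 8 lower, with a median of -0.01. Azi2, an adaptor of the kinase TBK1, had 2.91, 2.60 and 2.81 in the SRAKO hearts, against 2.77, 4.90 and 4.57 in the WT hearts, where WT2368 lies among the SRAKO hearts. Its log2 difference of -0.40 reached an unadjusted p of 0.0446 in limma but an adjusted p of 0.999. Without WT2368 the difference was -0.605, with an adjusted p of 0.238 in limma. Map3k11, a kinase upstream of JNK, averaged 9.13 ± 0.482 in SRAKO and 8.28 ± 0.188 in WT without overlap. Map3k6 averaged 9.20 ± 2.33 and 6.70 ± 2.26 (log2 difference 0.43, and 0.16 without WT2368), and Map3k1 1.23 ± 0.106 and 1.37 ± 0.120.

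On the p38 and JNK branch below TAK1 19 genes had a row, 17 passed the filter, 9 were higher and 10 lower, with a median of -0.00. The transcription factor gene Atf3 had 1.54, 2.30 and 1.08 in the SRAKO hearts, against 1.69, 8.65 and 4.50 in the WT hearts, and WT2368 again lies among the SRAKO hearts (log2 difference -1.01; limma, unadjusted p = 0.0425, adjusted p = 0.999). Without WT2368 the difference was -1.49, with an adjusted p of 0.682 in limma, and without WT2379 it was -0.57. Fos, another stress-induced gene, pointed the other way, with 4.45, 2.08 and 6.35 against 1.55, 3.32 and 1.30. Mapk14, the gene of p38-alpha, had 3.93, 11.1 and 11.2 in the SRAKO hearts, against 6.74, 4.70 and 3.62 in the WT hearts. Mapk11, the gene of p38-beta, averaged 1.03 ± 0.0527 and 1.19 ± 0.0896.

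Of 25 deubiquitinases and other brakes 20 passed the filter, 10 were higher and 15 lower, with a median of -0.02. Tnfaip3, the gene of the ubiquitin editor A20, averaged 0.380 in SRAKO and 0.395 in WT, below the filter. Dusp1, a phosphatase that switches off p38 and JNK, averaged 32.4 ± 8.84 and 22.7 ± 9.66. Commd1, which promotes the removal of RelA, averaged 2.48 ± 0.0987 and 2.21 ± 0.134 without overlap. Usp21, a deubiquitinase, averaged 2.49 ± 0.388 and 2.17 ± 0.0993, and the SUMO ligase gene Pias1 2.38 ± 0.393 and 2.61 ± 0.105.

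TAB2 has a second role, known from cultured cells, in removing the corepressor NCoR from repressed genes. Of 7 genes of that corepressor complex 6 passed the filter, 4 were higher and 3 lower, with a median of 0.01. Ncor1 had 4.47, 4.00 and 4.72 in the SRAKO hearts, against 5.89, 4.80 and 4.72 in the WT hearts. Its groups meet almost without a gap, SRAKO2372 at 4.717 and WT2378 at 4.720, and the log2 difference was -0.18. Hdac3, the deacetylase of the complex, averaged 10.5 ± 1.11 in SRAKO and 10.3 ± 1.17 in WT, and Tbl1xr1 0.717 ± 0.541 and 1.53 ± 0.744.

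Rows annotated in the authors' table to the KEGG NF-kappa B signaling pathway gave 96 gene symbols, all 10 members among them. All symbols of such a row were counted, whichever of them the annotation refers to. This list was taken up after the file had been seen. Of the 55 that passed the filter 25 were higher and 30 lower, with a median of -0.02. Groups that do not overlap were found for 3 on the higher side (Birc3, Card10 and Tab2, the last chosen on this contrast) and 3 on the lower side (Ddx58, and Ticam2 and Tmed7, which share a row). That is 5.45% of the 55 symbols on each side, against 4.28% and 3.76% of all tested rows. The row of Ticam2 and Tmed7 enters the lower side once for each symbol. The share by symbol on that side therefore overstates the share by row, and nothing is read from it. Over all 96 symbols 41 were higher and 55 lower.

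Cell types that use this pathway varied between hearts, and in whole tissue fewer cells of a type and less RNA per cell cannot be told apart. All 12 cardiomyocyte markers were detected, with a summed FPKM of 17920 to 21190 in SRAKO and 18710 to 20190 in WT. That sum is mostly Mb (7726 in SRAKO and 6891 in WT) and Actc1 (4780 and 5330), whose groups overlap. The 8 atrial markers ranged from 3004 to 3542 in SRAKO and from 2515 to 8480 in WT, highest in WT2379, and all 8 had a lower mean in SRAKO. Nppa was the largest term of that sum, at 6576 in WT2379, 1651 and 2469 in WT2368 and WT2378, and 1829 to 2436 in SRAKO. The 14 macrophage and monocyte markers, 11 of them higher in SRAKO, summed to 240.9 to 264.9 in SRAKO and to 198 to 239 in WT. These sums do not overlap, but WT2379 at 238.9 lies just below SRAKO2365 at 240.9. The largest term of the sum is Lyz2 (118.9 in SRAKO and 106.8 in WT), whose groups overlap. Of 12 neutrophil markers 11 had a row, all higher in SRAKO, and 8 of the 11 (S100a8, Retnlg, Ly6g, Cxcr2, Mmp8, Ngp, Camp and Ltf) were listed at 0 in at least 1 heart. They summed to 5.10, 36.4 and 74.1 in SRAKO2365, SRAKO2371 and SRAKO2372, against 2.41 to 15.2 in WT. The 11 adipocyte markers, all higher in SRAKO, summed to 162, 485 and 270.4 in the same SRAKO hearts, against 155 to 186 in WT. Lymphocyte markers summed to at most 2.04 in every heart, with Cd3d, Cd8a, Ms4a1, Nkg7 and Klrb1c at 0 in at least 1. The part of macrophages, neutrophils or fat in the values of the members was not tested.

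Endothelial markers summed to 255 to 269 in SRAKO and 241 to 283 in WT over 10 genes, and fibroblast markers to 175 to 181 in SRAKO and 163 to 196 in WT over 9. Both sums overlap. The fibroblast sum is mostly Dcn (100.6 in SRAKO and 88.1 in WT). Of the 9 genes 7 were lower in SRAKO, with a median of -0.13. Postn averaged 6.84 in SRAKO and 8.66 in WT without overlap. Other tested markers without overlap were C1qa (macrophage, higher), Ttn and Ryr2 (cardiomyocyte, lower) and Kcnj3 and Kcnj5 (atrial, lower). This was 9.09% of the macrophage, 11.1% of the fibroblast, 16.7% of the cardiomyocyte and 25.0% of the atrial markers. Over all tested rows it was 4.28% on the higher side and 3.76% on the lower side. Nothing is read from these single markers. The rows whose pattern over the 6 hearts was most like that of Tab2, by Pearson's r on log2(FPKM + 1), were Pla2g7 (0.99), Ajuba (0.98), Gm21596 (0.98) and Gm15387 (0.98). All 4 were higher in 3 of 3 SRAKO hearts, and such values are the extremes of 10201 rows over 6 libraries that share the same genotypes. Among the members the correlation with Tab2 ran from -0.71 for Traf6 to 0.43 for Rela, over the same 6 hearts.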

How the data were processed

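The authors deposited FPKM per gene for each of the 6 hearts in 1 table; FPKM is coverage per kilobase of transcript and library size, so no count test was run. The tools listed in the submitters' processing notes are HISAT2 2.0.4, StringTie 1.3.4d, cutadapt 1.9 and edgeR. The notes name the human build hg38, while 99.6% of the 81263 Ensembl transcripts in the table are in the mouse annotation GENCODE M21 (GRCm38), from which positions were taken. Per the labels' protocols, libraries were made with oligo(dT) beads, which select poly(A) RNA.

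Values were compared as log2(FPKM + 1), which understates differences of weak genes. The 10201 rows that reached an FPKM of 1 in 3 or more hearts were fitted in R 4.3.3 with limma 3.58.1 by genotype alone, with a variance trend and a two-sided test, and adjusted by Benjamini-Hochberg over all of them at a threshold of 0.05. The code was tested on simulated data. SEs of members are from the 2 group variances. Groups came from the sample titles. Nothing says that hearts came from separate litters or days, so p-values measure only the spread between these samples.

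The members and the gene lists were chosen with earlier results of these data known. A symbol in several rows was read from the row with the highest mean. Genes named are the members, Sra1, up to 4 genes per pathway list with the smallest unadjusted p, and the 4 rows most like Tab2. Tnf, Il1b, Il6, Tnfaip3, Ccl2, Cxcl10, Ptgs2, Card10, Ddx58, Ticam2 and Tmed7 were named after their values were seen, as were Tlr7, Map3k2 and Coro2a. So were the single markers Lyz2, Dcn, Postn, C1qa, Ttn, Ryr2, Kcnj3, Kcnj5, Mb, Actc1 and Nppa. A gene that this rule names is not reported here. Alternatives were a pseudocount of 0.1, median-ratio scaling, filters at an FPKM of 5 or none, array weights, summed rows of a symbol, each heart left out in turn, and leaving out both hearts richest in ribosomal RNA.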

Additional observations from a re-analysis of the deposited data

How the results depend on the processing

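The Tab2 difference kept its direction and moved by less than the spread between hearts in the 10 alternatives run for it. Leaving out hearts or changing the pseudocount cannot make its groups overlap or turn its direction, so only the scaling bears on these. For every member, summing the rows of its symbol changes nothing, since each symbol had 1 row. It was 0.60 with a pseudocount of 0.1, 0.51 with median-ratio scaling (still without overlap), 0.45 to 0.60 with 1 heart left out and 0.63 without both WT2368 and SRAKO2371. Of 90 alternatives run for the other 9 members, 13 changed the sign of a difference, and 1 (Traf6 with a pseudocount of 0.1, -0.26) moved it by more than the spread between hearts. In 11 of the 90 the groups of another member, Tab1, Map3k7, Traf6, Chuk, Ikbkg or Rela, no longer overlapped. Groups with fewer hearts separate more easily, and no share over all tested rows was computed for these settings. Nothing is therefore read from this count, or from groups of single members that no longer overlapped in such a setting. Of 99 run for the 9 list medians, 23 changed the sign and 3 moved by more than that spread; these 3 are the ligands without WT2378, the NF-kappaB subunits without WT2368 and the targets without WT2379. The number of rows called over the whole table was 2 (353 at an unadjusted p under 0.05 in limma). It was 0 to 7 with 1 heart left out, 1 with a pseudocount of 0.1, 1 with a filter at an FPKM of 5, 0 without a filter on low values (919 unadjusted) and 0 without both WT2368 and SRAKO2371 (672 unadjusted); the cause was not tested. No paired analysis was possible because the titles give each heart a number of its own. Depth is known only indirectly; Tab3, Ikbkb, Traf6 and the cytokines have FPKM near or under 1.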

Other observations

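Some pathway rows varied widely between hearts of the same genotype. Traf3 had an FPKM of 0.268, 0.432 and 1.84 in SRAKO2365, SRAKO2371 and SRAKO2372, against 0.934, 2.61 and 1.45 in WT2368, WT2379 and WT2378. Tbl1xr1, a subunit of the NCoR complex, had 0.290, 0.534 and 1.33 in the same SRAKO hearts, against 1.86, 0.672 and 2.04 in the WT hearts. Each of these genes has a single row in the table, which joins 5 transcripts.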
